A study of Mus musculus with 32 samples.

Results

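Helper T cells that met their antigen for 48 h in medium with little arginine were compared with helper T cells that met it in medium with little leucine. The comparison holds 6 of the 32 arrays of the series, 3 per medium, chosen by their titles on the MoGene-2_0-st platform, which holds 23 arrays. The low-arginine group was given OVA, the ovalbumin peptide that the cells recognise, in medium with arginine at 1% of its amount in normal RPMI, and the low-leucine group was given OVA in medium with leucine at 1%. Both media were mixed from RPMI made for isotope labelling, to which the amino acids are added back. In every group the CD4+ cells came from Balb/c mice with the DO11.10 transgenic T cell receptor, which recognises that peptide, and were taken from cervical and axial nodes. Peritoneal macrophages collected 3 days after thioglycollate presented the antigen, and viable single CD4+ cells were sorted away from them. For reference, the text gives the same media without antigen (2 arrays for low arginine and 3 for low leucine), lysine at 1% with antigen (3 arrays) and full medium with antigen (3 arrays). Ages and the number of animals are not in the labels, and no label says that replicates came from different cultures or mice. A p-value here therefore reflects only how far these arrays scatter, and that scatter may be technical.

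Cells sense a shortage of any amino acid through uncharged transfer RNA, which activates the kinase GCN2. GCN2 phosphorylates the initiation factor eIF2 alpha, which slows most translation while the mRNA of the transcription factor ATF4 is translated more. ATF4 then raises genes for amino acid uptake and synthesis. A separate pathway, mTORC1, reads leucine through Sestrin proteins and arginine through CASTOR proteins and the lysosomal transporter SLC38A9, and drives ribosome building, glycolysis and growth when these are plentiful. Arginine is also the substrate of arginase and nitric oxide synthase in macrophages, and leucine is broken down by the branched-chain amino acid pathway. Activated helper T cells switch on cytokine genes through the calcium-driven factor NFAT and divide after they have grown.

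The 6 arrays resembled each other closely. Pearson correlations over all genes lay between 0.9833 and 0.9898 for pairs of arrays, and no pair was identical. The median level over genes was 5.58 to 5.67 per array on the log2 scale. T cell genes carried the label: Cd3e, a chain of the T cell receptor complex, was at 11.60 to 11.94 and Cd4 at 9.85 to 10.23 over the 6 arrays. Of 15 measured genes of CD4 T cell identity none was called (median log2 fold change -0.01, and 0.02 after quantile normalization), while a fit of the 6 arrays with the replicate number as a block called 1 higher and 2 lower. Array values have no true zero, so markers of other cells are given as levels. The 24 macrophage markers averaged 6.45, 6.32 and 6.26 in the low-arginine arrays and 6.40, 5.98 and 6.05 in the low-leucine arrays, a median log2 fold change of 0.14 with none called. Single markers differed widely in level. Lyz2 averaged 10.13 in low arginine and 9.50 in low leucine, and Cd68 averaged 9.05 and 9.08. Adgre1 averaged only 5.62 and 5.14, and Csf1r 5.54 and 5.48. Of the CD8 T cell markers, Cd8b1 averaged 8.18 in low arginine and 8.66 in low leucine, and Cd8a 5.68 and 5.88. Of the B cell markers, Cd79a averaged 6.78 and 6.15, and Ms4a1 5.14 and 5.02. In such bulk samples, fewer cells of a type and less RNA per cell cannot be told apart.

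With antigen, the cytokine genes Il21, Il2, Il13 and Il4 and the oxygen-responsive Egln3 were lower in low arginine than in low leucine. The stress response genes Slc7a11, Jdp2 and Nupr1 were higher. Throughout, fell and rose mean lower and higher in low arginine than in low leucine, not a change from full medium. Of 22180 genes, 158 (0.712%) were called, meaning a limma adjusted p below 0.05 over all genes. Fewer rose in low arginine, 52 (0.234%), than fell, 106 (0.478%). After quantile normalization the split was 83 and 90, so that 48.0% of the calls were rises, against 32.9% as deposited. The median log2 fold change over all genes was 0.002. Risers spanned 0.46 to 1.43 with a median of 0.75, and fallers spanned -2.76 to -0.34 with a median of -0.77. The low-arginine and low-leucine arrays did not overlap for any of the 158 called genes, nor for 20.1% of all genes.

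Arrays with the same replicate number varied together, and a fit of the 6 arrays with that number as a block called many more genes. It called 1404 genes (6.33%), of which 514 (2.32%) were higher and 890 (4.01%) lower, and all 158 genes were among them. Leaving out the other 17 arrays already raised the count, since the same 6 arrays without the block gave 879 calls. A block of the 17 low amino acid arrays by runs of 6 submitter numbers gave 110 calls, of which 99 were among the 158. It groups the 6 compared arrays just as the replicate numbers do, so only the other arrays in the fit differ. No label says what a run of numbers marks. An adjusted p named as blocked comes from the fit of 6 arrays with the block. With 3 arrays against 3, an exact permutation test of a single gene could not go below p = 0.10, so the calls rest on the model fitted across all genes.

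**Figure D1:**
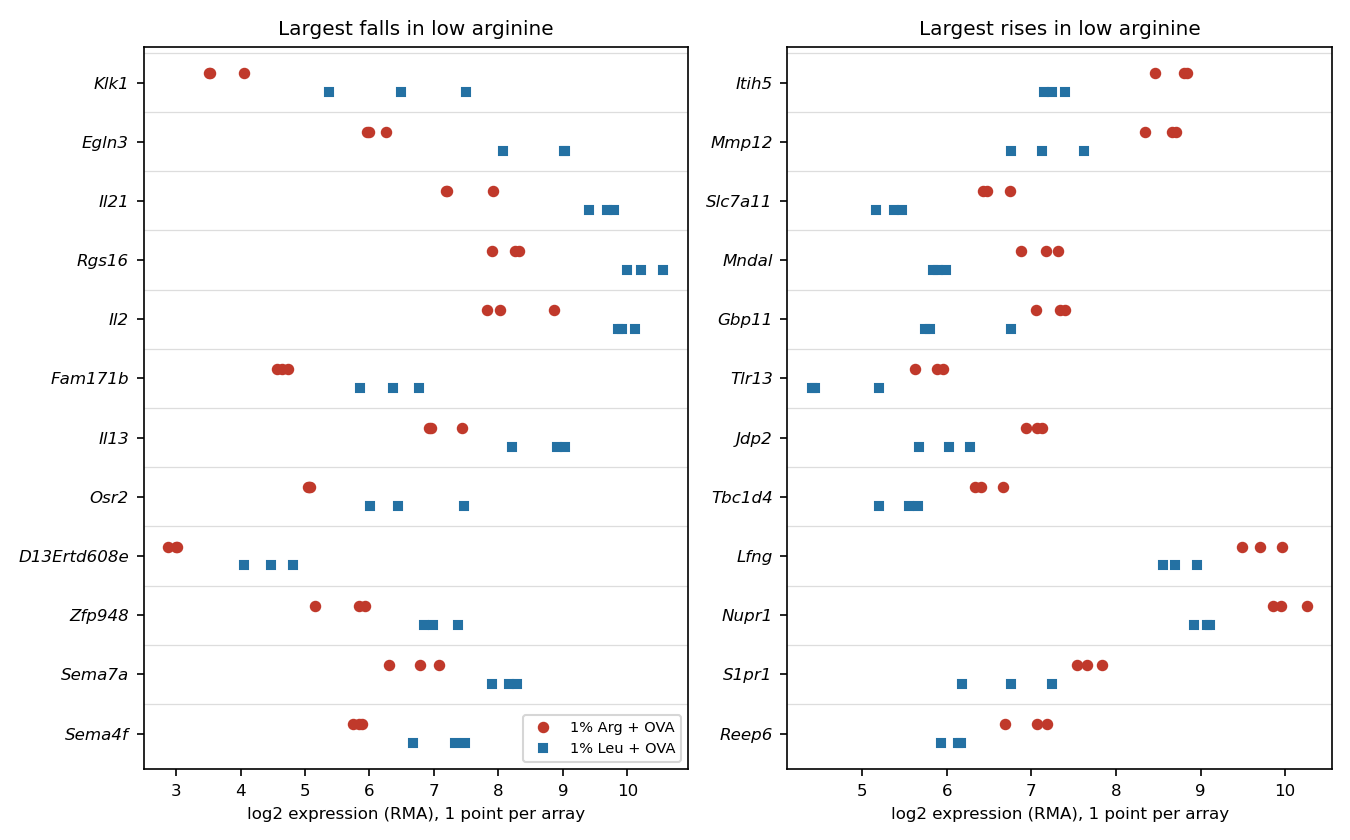
Level of the 12 largest falls (left) and the 12 largest rises (right) in every array, on the log2 scale (x axis), with 1 row per gene and the 1% Arg + OVA arrays (circles) above the 1% Leu + OVA arrays (squares). The 2 groups are separate in every row, and Gbp11 and S1pr1 are the rises whose low-leucine arrays spread most.

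Among the falls were 4 cytokine genes, Il21, Il2, Il13 and Il4. Il21, which encodes a cytokine that helps B cells and follicular helper T cells, stood at 7.19, 7.21 and 7.92 in the low-arginine arrays and at 9.79, 9.40 and 9.68 in the low-leucine arrays. The lowest low-leucine array was far above the highest low-arginine array, and the level in low arginine was 0.22 times that in low leucine (log2 fold change -2.19 ± 0.37 SE, adjusted p = 0.00472). Il2, the growth factor that activated T cells secrete for themselves, was at 7.83, 8.02 and 8.86 in low arginine and at 9.92, 9.85 and 10.12 in low leucine. It fell by 1.73 ± 0.29 on the log2 scale (adjusted p = 0.00426), without overlap. The type 2 cytokine Il13 was at 6.92, 6.96 and 7.44 in low arginine and at 8.91, 8.21 and 9.03 in low leucine (-1.61 ± 0.30, adjusted p = 0.0103). Its partner Il4, which drives helper cells to the type 2 fate, was at 4.92, 4.82 and 4.97 in low arginine and at 6.55, 5.67 and 5.56 in low leucine (-1.02 ± 0.24, adjusted p = 0.045). The 3 low-arginine arrays of Il4 were nearly equal, and replicate 1 in low leucine was the highest array of that group. These low-arginine levels lay below the median level over genes of each array (5.58 to 5.67) and may be near background, so the size of the fall is uncertain. The same limit holds for the low-arginine levels of Klk1, Fam171b, Osr2, Il3 and Ifng given below. It also holds for the low-leucine levels of the risers Slc7a11 and Tlr13, and for Fads2 and Scd1 in both low media.

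These 4 cytokines share a motif close to their start sites, so the windows that hold it are shown. NFAT binds DNA around the core TGGAAAA, which was searched with its reverse complement TTTTCCA in the 250 bases before each start in RefSeq's promoter table (build GRCm38.p6). Each window of 120 bases is written 5′ to 3′ along the gene's strand, with the core in capitals.
Il21, chr3:37232693-37232812, minus strand: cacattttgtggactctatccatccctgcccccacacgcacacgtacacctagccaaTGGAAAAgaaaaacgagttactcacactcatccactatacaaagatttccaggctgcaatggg
Il2, chr3:37125955-37126074, minus strand: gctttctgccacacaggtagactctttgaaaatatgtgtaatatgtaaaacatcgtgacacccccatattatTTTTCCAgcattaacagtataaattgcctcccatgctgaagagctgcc
Il13, chr11:53634772-53634891, minus strand: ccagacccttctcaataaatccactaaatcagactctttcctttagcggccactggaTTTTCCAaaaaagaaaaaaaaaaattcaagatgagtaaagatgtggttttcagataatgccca
Il4, chr11:53618734-53618853, minus strand: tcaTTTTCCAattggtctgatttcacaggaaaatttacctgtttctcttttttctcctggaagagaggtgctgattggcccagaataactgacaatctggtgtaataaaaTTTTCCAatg
The matches begin 119 bases before the start of Il21, 48 before Il2, 132 before Il13, and 185 and 78 before Il4. Over 27025 promoters 6.79% held the core, and 6.17% over the 16990 measured genes among them. It was in 9 of the 90 genes that fell and 1 of the 45 that rose with a promoter in the table. The 9 include the 4 cytokines shown, which were picked from these data. Of the 24 cytokine promoters, 5 held it. A match is a description of these letters and shows no binding.

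The other cytokines did not follow as a block. Of 27 measured cytokine and chemokine genes 4 fell, none rose, and the median was -0.06. Il3, a growth factor for blood progenitors and mast cells, was at 4.90, 4.92 and 4.62 in low arginine and at 6.64, 6.69 and 6.63 in low leucine. Its log2 fold change of -1.84 ± 0.47 missed the call (adjusted p = 0.0776), while the blocked adjusted p was 6.71e-05. Ifng, which encodes interferon gamma, was at 4.81, 5.10 and 5.11 in low arginine and at 6.04, 5.72 and 5.75 in low leucine (-0.83 ± 0.38, adjusted p = 0.477, blocked 0.00997). In the other direction, Il17a, the cytokine of Th17 cells, was at 6.72, 8.68 and 8.74 in low arginine and at 5.79, 7.94 and 7.82 in low leucine. Replicate 1 was the lowest array of Il17a in both media, and within each replicate number low arginine was higher by 0.93, 0.75 and 0.92 (0.86 ± 0.49, adjusted p = 0.646, blocked 0.000786). Fasl, which encodes a death receptor ligand, also lay higher, at 6.98, 7.21 and 7.51 in low arginine and 6.03, 6.41 and 6.49 in low leucine (0.93 ± 0.26, adjusted p = 0.111, blocked 0.000983). Csf2, which encodes GM-CSF, gave a log2 fold change of 0.00 ± 0.25 with a 95% interval of -0.51 to 0.52. With the block, 3 cytokine genes were higher and 8 lower.

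The other media place these levels. Il21 averaged 7.44 in low arginine, 9.63 in low leucine, 6.51 in low lysine and 7.27 in full medium, all with antigen, so low leucine stood apart from the rest. Il4 was also highest in low leucine but with low lysine next, at 4.90 in low arginine, 5.93 in low leucine, 5.46 in low lysine and 4.98 in full medium. Il13 ran differently, at 7.11 in low arginine and 7.70 in low lysine, against 8.72 in low leucine and 8.50 in full medium. Il2 was lowest in low arginine at 8.24, with 9.96 in low leucine, 10.69 in low lysine and 8.94 in full medium. Of the 158 called genes, 68 lay nearer to full medium in low arginine than in low leucine. The full-medium arrays have submitter numbers outside the runs that hold the low arginine, leucine and lysine arrays, so medium and run cannot be told apart in any comparison with full medium.

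**Figure D2:**
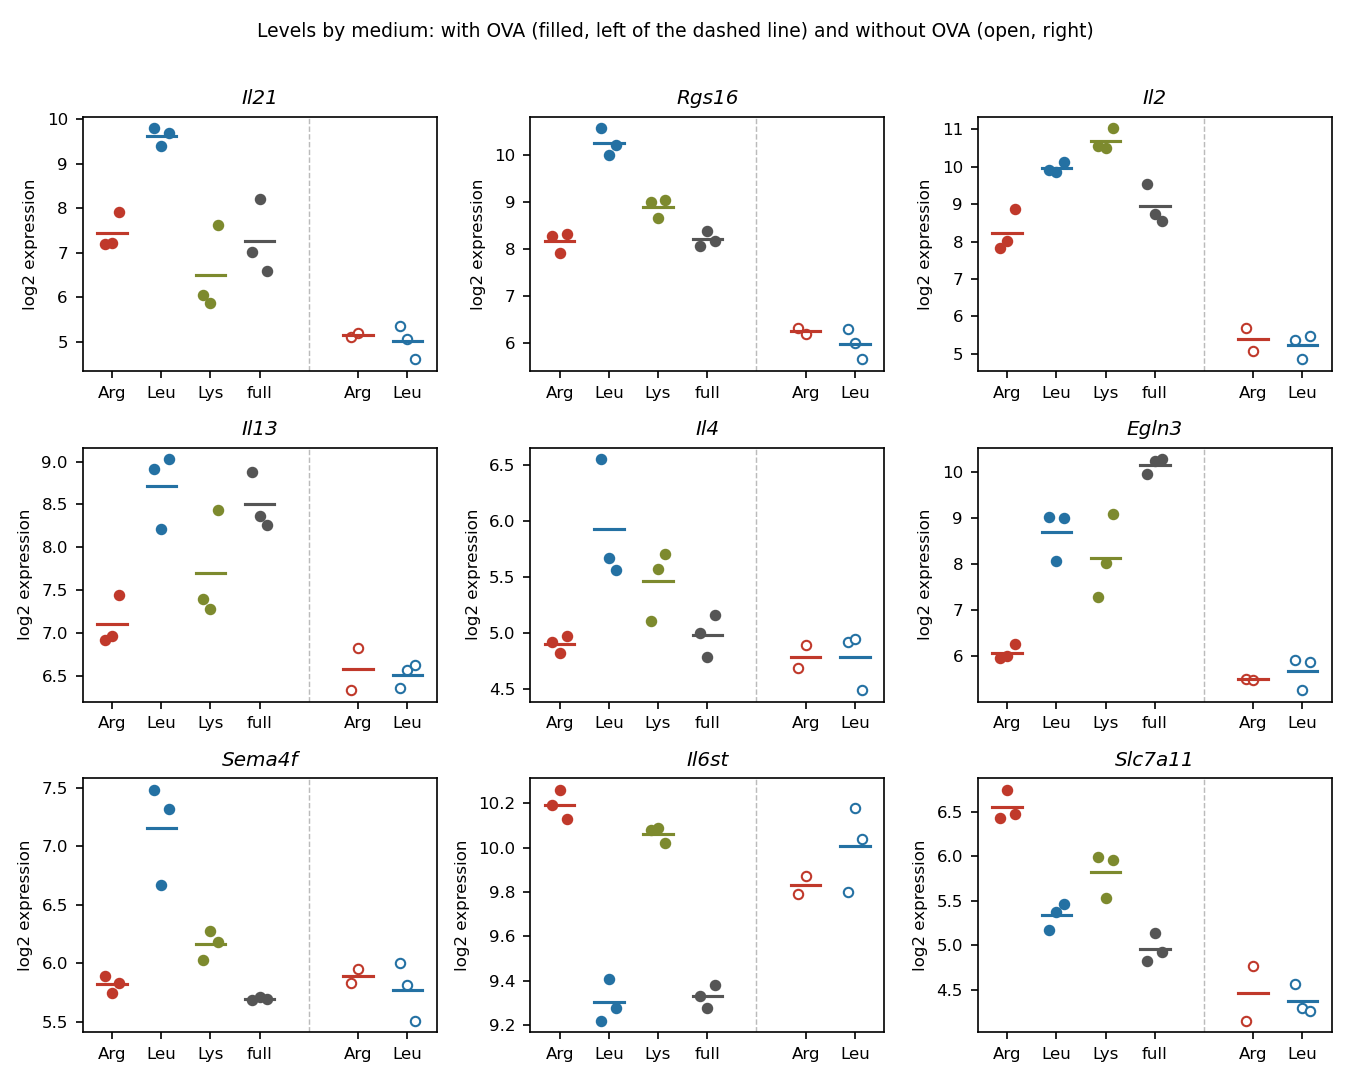
Level of 9 genes (y axes, log2 expression, each with its own range) by medium (x axes: arginine, leucine or lysine at 1%, or full medium), with 1 point per array and a bar at the mean. Filled points had OVA and open points, right of the dashed line, did not: Il21, Rgs16 and Sema4f stand highest in low leucine with OVA, among the groups with OVA Egln3 stands lowest in low arginine, and no gene separates the 2 media without OVA.

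The fall with the smallest adjusted p was in a signalling gene. Rgs16, a regulator that speeds the shut-off of G protein signalling, was at 8.26, 7.90 and 8.32 in low arginine and at 10.56, 10.00 and 10.21 in low leucine (-2.10 ± 0.17, adjusted p = 5.1e-07). Its mean was 8.16 in low arginine, 10.26 in low leucine, 8.89 in low lysine and 8.20 in full medium. A pair of semaphorins, guidance proteins that also act on immune cells, fell as well. Sema4f was at 5.89, 5.75 and 5.83 in low arginine and at 7.48, 6.67 and 7.32 in low leucine (-1.34 ± 0.16, adjusted p = 0.000287). Sema7a, which activated T cells carry on their surface, was at 6.31, 7.08 and 6.79 in low arginine and at 8.29, 7.90 and 8.16 in low leucine (-1.39 ± 0.29, adjusted p = 0.0212). Neither semaphorin overlapped between the media.

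The largest fall of all was in Klk1, tissue kallikrein, a secreted protease. Its levels were 3.52, 4.06 and 3.51 in low arginine and 7.49, 5.37 and 6.49 in low leucine (-2.76 ± 0.45, adjusted p = 0.00361). The low-leucine arrays of Klk1 spread over more than 2 log2 units, so the 3 differences within replicate numbers ran from -3.98 to -1.31. Fam171b was at 4.74, 4.64 and 4.56 in low arginine and at 6.37, 6.77 and 5.86 in low leucine (-1.68 ± 0.26, adjusted p = 0.00311). Osr2, an odd-skipped zinc finger transcription factor, was at 5.08, 5.04 and 5.06 in low arginine and at 7.47, 6.44 and 6.01 in low leucine (-1.58 ± 0.32, adjusted p = 0.0181). D13Ertd608e and the zinc finger gene Zfp948 fell by 1.48 ± 0.20 and 1.43 ± 0.18 (adjusted p = 0.000646 and 0.000376). Of the 12 largest falls, Klk1, Egln3, Il21, Rgs16, Il2, Fam171b, D13Ertd608e, Zfp948 and Sema4f stayed called whichever of the 6 arrays was left out. Il13, Osr2 and Sema7a stayed called in 2, 1 and 1 of the 6 such fits, with adjusted p up to 0.0767, 0.152 and 0.148, and Il4 in 1 of 6 (up to 0.289, called without replicate 3 in low leucine). With the block over submitter-number runs, Il4 had an adjusted p of 0.0675.

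Egln3, Bnip3 and Hk2, which respond to oxygen or serve glucose use, fell in low arginine. Egln3, a prolyl hydroxylase that marks the hypoxia factor HIF for destruction and is itself a HIF target, was at 5.96, 6.0 and 6.26 in low arginine and at 9.03, 8.07 and 9.01 in low leucine. Its level in low arginine was 0.162 times that in low leucine (-2.63 ± 0.33, adjusted p = 0.000352), and the groups lay far apart. Means were 6.08 in low arginine, 8.70 in low leucine, 8.14 in low lysine and 10.18 in full medium. Bnip3, a mitophagy receptor and HIF target, was at 6.0, 6.06 and 6.27 in low arginine and at 7.41, 6.68 and 7.68 in low leucine (-1.15 ± 0.25, adjusted p = 0.0263). Hk2, the hexokinase that activated cells induce, was at 7.25, 7.44 and 7.38 in low arginine and at 8.40, 8.08 and 8.17 in low leucine (-0.86 ± 0.20, adjusted p = 0.0387). Hk2 lost its call in each of the 6 fits that left out an array (adjusted p up to 0.201), and Bnip3 in 5 of them (up to 0.179, called without replicate 2 in low leucine). Both also lost it with the block over submitter-number runs (0.0581 for Hk2 and 0.0667 for Bnip3) and after quantile normalization (0.11 and 0.0501), and Hk2 with centred arrays (0.0527).

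Hk2 was the only called member of 18 glycolysis and glucose uptake genes, yet 17 of the 18 lay below 0 and the list median was -0.42. With the block 12 of the 18 were lower and none higher. Among these were the glucose transporters Slc2a1 (-0.47 ± 0.17, adjusted p = 0.286, blocked 0.0135) and Slc2a3 (-0.69 ± 0.32, adjusted p = 0.493, blocked 0.0402). Slc2a3 was at 7.12, 6.82 and 7.03 in low arginine and at 7.72, 6.97 and 8.35 in low leucine, where replicate 2 overlapped the other medium. The pyruvate kinase Pkm was at 10.89, 10.89 and 11.11 in low arginine and at 11.41, 11.26 and 11.48 in low leucine (-0.42 ± 0.14, adjusted p = 0.232, blocked 0.00119). The list median differed between replicate numbers, at -0.54, -0.18 and -0.38, and replicate 2 in low leucine had the lowest list mean of its group (8.33, against 8.66 and 8.71). Of 21 measured HIF target genes, a list put together after Egln3 had been seen, only Egln3 and Bnip3 were called and the median was -0.25. With the block 1 of the 21 was higher and 6 were lower. HIF targets that were not called included Pdk1 (-0.26 ± 0.18) and Ndrg1 (-0.78 ± 0.23, adjusted p = 0.147, blocked 0.000857).

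Some genes that build ribosomes or fold proteins fell too. Of 28 ribosome biogenesis genes 3 fell, none rose and 25 lay below 0, with a median of -0.38 that was steady over the replicate numbers (-0.41, -0.43 and -0.32). Mybbp1a, which binds the polymerase that transcribes ribosomal RNA, was at 8.51, 8.49 and 8.69 in low arginine and at 9.15, 9.26 and 9.24 in low leucine (-0.65 ± 0.12, adjusted p = 0.00626). Noc2l and Nob1, which act in assembly of the large and small subunit, fell by 0.72 ± 0.15 and 0.65 ± 0.13 (adjusted p = 0.0255 and 0.0194). With the block 15 of the 28 were lower and none higher, among them the helicase Ddx21 (-0.71 ± 0.17, adjusted p = 0.0556, blocked 0.000234). The number of called members ranged from 0 to 3 when 1 array was left out, and Noc2l and Nob1 lost their calls with the block over submitter-number runs (adjusted p = 0.0753 and 0.0625).

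The endoplasmic reticulum chaperone Calr, calreticulin, was at 9.65, 9.62 and 9.58 in low arginine and at 10.35, 10.25 and 10.17 in low leucine (-0.64 ± 0.13, adjusted p = 0.0125). It was the called member of 19 unfolded protein response genes, 18 of which lay below 0 (median -0.34). The block called 10 of these lower, among them the chaperone Hspa5 (-0.52 ± 0.13, adjusted p = 0.0752, blocked 0.00145). The number of called members ranged from 0 to 1 when 1 array was left out, so Calr did not keep its call in every such fit. Pomp, which helps assemble the proteasome, was at 9.55, 9.82 and 9.47 in low arginine and at 10.64, 10.69 and 10.45 in low leucine (-0.98 ± 0.16, adjusted p = 0.00361). Pomp was named after its value had been seen, and it stayed called whichever array was left out.

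**Figure D3:**
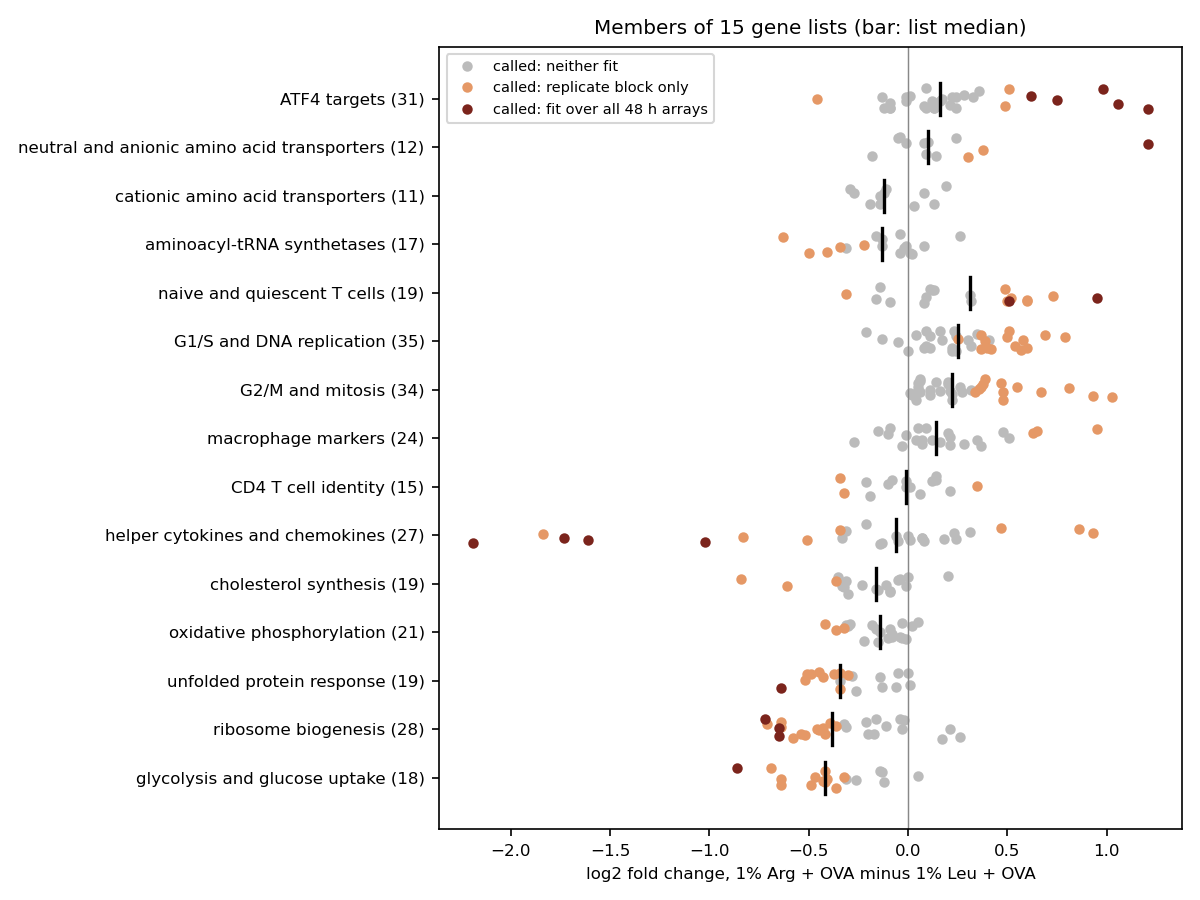
Log2 fold change of each member (x axis) of 15 gene lists (rows, with the number of measured genes), where a black bar marks the list median. Dark points were called in the fit over all 48 h arrays and orange points only with the replicate block: glycolysis, ribosome and unfolded protein response genes lie mostly left of 0, and G1/S and G2/M genes mostly right of it.

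Several ATF4 targets rose in low arginine. Slc7a11, which imports cystine in exchange for glutamate, was at 6.43, 6.75 and 6.48 in low arginine and at 5.17, 5.38 and 5.47 in low leucine. It rose by 1.21 ± 0.18 (adjusted p = 0.00246), without overlap. Its low-leucine levels lay below the median level over genes and may be near background, so the size of the rise is uncertain. Jdp2, a repressor of AP-1 type factors, was at 6.94, 7.07 and 7.13 in low arginine and at 6.27, 5.67 and 6.03 in low leucine (1.06 ± 0.17, adjusted p = 0.00311). The stress-induced nuclear protein Nupr1 was at 10.26, 9.95 and 9.85 in low arginine and at 9.07, 9.11 and 8.92 in low leucine (0.98 ± 0.18, adjusted p = 0.00724). Cebpg, a dimer partner of ATF4, was at 9.62, 9.64 and 9.74 in low arginine and at 8.75, 9.01 and 9.0 in low leucine (0.75 ± 0.16, adjusted p = 0.0247). Herpud1, which serves degradation at the endoplasmic reticulum, was at 9.11, 9.11 and 9.25 in low arginine and at 8.58, 8.41 and 8.62 in low leucine (0.62 ± 0.13, adjusted p = 0.019).

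Of these 5 genes, 4 hold the exact C/EBP-ATF response element close to their start. The element TTGCATCA and its reverse complement TGATGCAA were searched in the same 250 bases, and the windows that hold them are shown with the element in capitals.
Nupr1, chr7:126625517-126625636, minus strand: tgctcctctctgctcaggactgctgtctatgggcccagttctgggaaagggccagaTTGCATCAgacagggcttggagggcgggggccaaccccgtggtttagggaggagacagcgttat
Slc7a11, chr3:50443614-50443733, minus strand: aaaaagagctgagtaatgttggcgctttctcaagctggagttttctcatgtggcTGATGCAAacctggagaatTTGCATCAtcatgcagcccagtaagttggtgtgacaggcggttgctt
Jdp2, chr12:85599296-85599415, plus strand: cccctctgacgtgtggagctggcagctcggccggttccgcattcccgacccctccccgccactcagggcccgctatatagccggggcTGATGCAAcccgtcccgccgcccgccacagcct
Herpud1, chr8:94386261-94386380, plus strand: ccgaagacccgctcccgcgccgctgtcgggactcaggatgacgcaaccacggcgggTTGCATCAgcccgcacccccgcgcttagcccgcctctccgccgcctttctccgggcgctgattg
The element begins 110 bases before the start of Nupr1, 66 and 47 before Slc7a11, 33 before Jdp2 and 112 before Herpud1. It occurred in 0.918% of 27025 promoters and in 0.8% of those of measured genes. Of genes with a promoter in the table, 4 of the 45 risers and none of the 90 fallers held it. Of 29 ATF4 targets with a promoter 9 held it, so most of these genes do not carry this exact form here. A looser form, TTGCNTCA, occurred in 3.61% of promoters, in 4 of the 45 risers and in 1 of the 90 fallers. The AP-1 site TGACTCA (5.16% of promoters) was in 4 risers and 3 fallers. The hypoxia core ACGTG (18.5%, and 20.4% of measured genes) was in 14 risers and 24 fallers.

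Most other ATF4 targets were not called. Of 31 measured ATF4 targets 5 rose, none fell, 23 lay above 0 and the median was 0.16. The block called 7 higher and 1 lower. The list mean was 8.52, 8.51 and 8.66 in low arginine and 8.35, 8.27 and 8.35 in low leucine, without overlap. Asns, which makes asparagine and is a classic ATF4 target, was at 10.05, 10.21 and 10.26 in low arginine and at 10.20, 10.00 and 10.08 in low leucine (0.08 ± 0.22, 95% interval -0.39 to 0.54). Trib3, a pseudokinase that restrains ATF4, gave 0.09 ± 0.22, the glutathione-degrading enzyme Chac1 0.33 ± 0.15 and the mTORC1 inhibitor Sesn2 0.21 ± 0.25, none called. Atf4 itself gave -0.04 ± 0.14, although ATF4 is controlled mainly at translation. Ddit3, the pro-death factor CHOP, ran the other way, at 9.89, 9.90 and 9.73 in low arginine and 10.21, 10.41 and 10.27 in low leucine (-0.46 ± 0.17, adjusted p = 0.304, blocked 0.00268). Against full medium, which shares its arrays between both contrasts, the list median was 0.77 in low arginine and 0.59 in low leucine. Slc7a11 stood 1.59 above full medium in low arginine and 0.38 above it in low leucine, and Jdp2 stood 1.32 and 0.26 above it in low arginine and low leucine. Nupr1 was high in both, by 3.06 in low arginine and 2.07 in low leucine. The number of ATF4 targets called ranged from 2 to 4 when 1 array was left out. Slc7a11 and Jdp2 stayed called in all 6 such fits, Nupr1 in 5 (0.0684 without replicate 1 in low arginine), Herpud1 in 1 and Cebpg in none, with adjusted p up to 0.119 and 0.153. Cebpg also lost its call with centred arrays (0.0662) and with the block over submitter-number runs (0.0622).

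**Figure D4:**
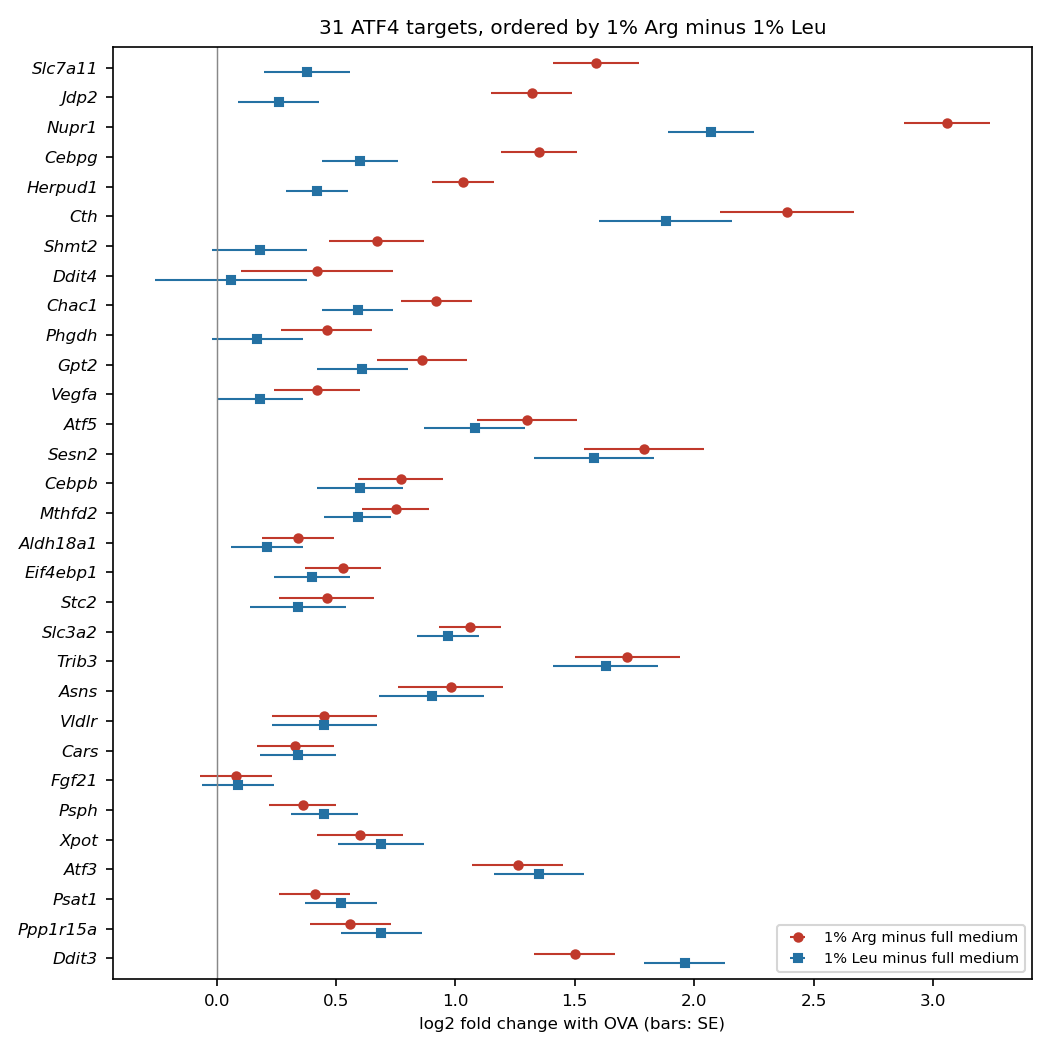
Log2 fold change against full medium, all with OVA (x axis, bars are SE), of 31 ATF4 targets (rows) in 1% Arg (circles) and 1% Leu (squares). Genes are ordered by their difference between the 2 media: from Trib3 and Asns down to Ddit3 the 2 symbols nearly coincide or low leucine is ahead, and Slc7a11, Jdp2 and Nupr1 at the top lie further right in low arginine.

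Genes that handle the missing amino acids themselves hardly differed. None of 11 cationic amino acid transporters was called (median -0.12), and the arginine and lysine carriers Slc7a1 (0.19 ± 0.14, 95% interval -0.09 to 0.48) and Slc7a3 (0.13 ± 0.16, -0.21 to 0.46) were not among the calls. Slc7a3 was at 8.43, 8.50 and 8.67 in low arginine and at 8.48, 8.36 and 8.38 in low leucine, and it averaged 6.31 in full medium. The leucine carrier Slc7a5 gave 0.30 ± 0.19 (adjusted p = 0.706, blocked 0.0154). Slc7a11 was the called member of 12 neutral and anionic transporters (median 0.10), of which the block called 3 higher. Among 20 genes of arginine, proline and polyamine metabolism none was called (median 0.03), and the block called 1 higher and 3 lower. The arginases Arg1 (-0.16 ± 0.24) and Arg2 (0.10 ± 0.18) and the arginine-making enzyme Ass1 (-0.04 ± 0.20) had intervals that include 0. Odc1, which commits ornithine to polyamines, was at 8.09, 8.21 and 8.47 in low arginine and at 8.80, 8.68 and 8.57 in low leucine (-0.42 ± 0.21, adjusted p = 0.527, blocked 0.0499).

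One gene of leucine breakdown did fall. Mccc1, a subunit of the carboxylase that acts in that pathway, was at 6.27, 6.15 and 6.10 in low arginine and at 6.73, 7.10 and 6.99 in low leucine (-0.77 ± 0.17, adjusted p = 0.0364). It was the called member of 21 genes of branched-chain amino acid breakdown (median -0.06, and 0.00 after quantile normalization), and it lost its call in each of the 6 fits that left out an array (adjusted p up to 0.177), after quantile normalization (0.128) and with centred arrays (0.074). The transaminase Bcat1, which starts that pathway, gave 0.00 ± 0.16 with an interval of -0.34 to 0.34. None of 35 genes of GCN2 and mTORC1 sensing was called (median -0.09), and the block called 1 higher and 1 lower. The one with the largest difference was Fnip1, of the folliculin complex (0.71 ± 0.19, adjusted p = 0.0985, blocked 0.000943). None of 17 aminoacyl-tRNA synthetases was called (median -0.13), while the block called 5 lower, among them Hars (-0.63 ± 0.17, adjusted p = 0.0868, blocked 0.0014) and Kars (-0.50 ± 0.13, adjusted p = 0.0869, blocked 0.00266).

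Of the genes of resting and recirculating T cells, S1pr1 and Foxp1 rose. S1pr1, the receptor through which T cells leave lymph nodes, was at 7.54, 7.66 and 7.83 in low arginine and at 6.18, 6.76 and 7.24 in low leucine (0.95 ± 0.22, adjusted p = 0.0406). Foxp1, a transcription factor that keeps T cells quiescent, was at 9.91, 9.95 and 9.99 in low arginine and at 9.23, 9.46 and 9.61 in low leucine (0.51 ± 0.12, adjusted p = 0.0387). These were the called members of 19 naive and quiescent T cell genes, of which 15 lay above 0 (median 0.31). The block called 8 higher and 1 lower, and the genes called higher include Klf2, which drives S1pr1 (0.73 ± 0.19, adjusted p = 0.0809, blocked 0.00226), and the homing receptor Ccr7 (0.60 ± 0.17, adjusted p = 0.12, blocked 0.000407). Both S1pr1 and Foxp1 stayed called in 1 of the 6 fits that left out an array, the one without replicate 3 in low leucine (adjusted p up to 0.277 and 0.254). Both lost their calls with centred arrays (0.0687 and 0.116), and Foxp1 without an intensity trend (0.0744).

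Il6st, Lfng, Tbc1d4 and Reep6 rose as well. Il6st, the gp130 chain shared by receptors of the IL-6 family, was at 10.19, 10.26 and 10.13 in low arginine and at 9.22, 9.41 and 9.28 in low leucine (0.89 ± 0.10, adjusted p = 0.000122). Lfng, a glycosyltransferase that tunes Notch, was at 9.70, 9.49 and 9.96 in low arginine and at 8.55, 8.70 and 8.96 in low leucine (0.98 ± 0.15, adjusted p = 0.0029). Tbc1d4, a Rab regulator of glucose transporter traffic, rose by 0.99 ± 0.16 (adjusted p = 0.00361) and Reep6, which shapes the endoplasmic reticulum, by 0.91 ± 0.17 (adjusted p = 0.0109). Il6st, Lfng and Tbc1d4 stayed called whichever array was left out, and Reep6 in 3 of 6 fits (adjusted p up to 0.0824, lost without replicate 2 or 3 in low arginine or replicate 2 in low leucine). Of the inhibitory receptor and anergy genes, Cd200 and Cd274 fell. Cd200 was at 9.63, 9.56 and 9.80 in low arginine and at 10.76, 10.37 and 10.50 in low leucine (-0.88 ± 0.16, adjusted p = 0.00755). Cd274, which encodes PD-L1, fell by 0.64 ± 0.14 (adjusted p = 0.0253). These were 2 of 18 members of that list, of which 9 lay above 0 and 9 below (median -0.02), and the block called 1 higher and 3 lower. They stayed called in 3 and 1 of the 6 fits (adjusted p up to 0.0763 and 0.21), and Cd274 also lost its call after quantile normalization (0.0511) and with the block over submitter-number runs (0.0768).

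Cell cycle genes lay higher in low arginine by small amounts. All 34 measured G2/M genes lay above 0, from 0.01 to 1.03 with a median of 0.22, yet none was called, and the same held for 35 G1/S genes, of which 31 lay above 0 (median 0.25). The 6 arrays alone, without a block, called 7 G2/M and 10 G1/S genes higher and none lower. With the block 13 G2/M and 14 G1/S genes were called higher and none lower. The fit over all 48 h arrays pools the spread of every group. Among these, the low-lysine arrays with antigen had G2/M list means of 6.04, 6.99 and 8.03. How far that spread widened the errors of G2/M genes was not tested. Nuf2, a kinetochore protein, was at 9.87, 9.82 and 9.94 in low arginine and at 8.46, 8.97 and 9.10 in low leucine (1.03 ± 0.40, adjusted p = 0.338, blocked 0.000407). Gins1, of the replication fork helicase, was at 8.31, 8.32 and 8.35 in low arginine and at 7.41, 7.67 and 7.54 in low leucine (0.79 ± 0.21, adjusted p = 0.0956, blocked 0.000943). The mitotic kinase Cdk1 (0.06 ± 0.44) and the proliferation marker Mki67 (0.16 ± 0.49) were close to 0, with wide intervals of -0.85 to 0.98 and -0.86 to 1.18. The G2/M list mean was 8.56, 8.55 and 8.75 in low arginine and 8.12, 8.37 and 8.48 in low leucine, so the groups did not overlap. Myc, a transcription factor of cell growth, gave -0.08 ± 0.11, and Il2ra, the IL-2 receptor alpha chain, 0.02 ± 0.13 (95% interval -0.25 to 0.30).

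Some of the largest rises were in genes known from macrophages or interferon responses. Mmp12, macrophage elastase, was at 8.71, 8.66 and 8.34 in low arginine and at 7.62, 6.76 and 7.13 in low leucine (1.40 ± 0.24, adjusted p = 0.00483). Tlr13, a receptor for bacterial ribosomal RNA in mice, was at 5.62, 5.96 and 5.89 in low arginine and at 5.20, 4.44 and 4.41 in low leucine (1.14 ± 0.26, adjusted p = 0.0404). Without antigen the same genes were higher still, at 10.20 and 10.38 in low arginine and 10.50, 10.07 and 10.24 in low leucine for Mmp12. Tlr13 was at 6.27 and 7.22 in low arginine and at 6.97, 6.49 and 7.73 in low leucine, and neither gene separated the media there. Beside them, the 24 macrophage markers had 18 members above 0 and none called, and the block called 3 higher, among them Ccl6 (0.95 ± 0.33, adjusted p = 0.258, blocked 0.00511) and Itgam (0.65 ± 0.23, adjusted p = 0.284, blocked 0.0175). Lyz2, macrophage lysozyme, was at 10.31, 9.82 and 10.25 in low arginine and at 10.09, 9.08 and 9.32 in low leucine (0.63 ± 0.26, adjusted p = 0.402, blocked 0.0059). Low-leucine replicates 2 and 3 had the lowest macrophage list means (5.98 and 6.05) and the lowest Tlr13, and the part of macrophage RNA in these rises was not tested.

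Itih5, of a family that binds hyaluronan in the matrix, was the largest rise, at 8.80, 8.46 and 8.84 in low arginine and 7.40, 7.15 and 7.25 in low leucine (1.43 ± 0.22, adjusted p = 0.00246). Mndal, an interferon-inducible PYHIN family gene, was at 7.17, 7.31 and 6.88 in low arginine and at 5.84, 5.90 and 5.99 in low leucine (1.21 ± 0.18, adjusted p = 0.00223). Gbp11, of the interferon-induced guanylate-binding family, was at 7.40, 7.06 and 7.34 in low arginine and at 5.74, 6.76 and 5.80 in low leucine (1.17 ± 0.24, adjusted p = 0.0209). Family members of Mndal and Gbp11 are close in sequence, so their probe sets may share signal. None of 23 interferon response genes was called (median 0.16), and the block called 1 lower. Itih5, Mmp12 and Mndal stayed called whichever array was left out, and Tlr13 and Gbp11 in 1 of 6 fits (adjusted p up to 0.194 and 0.152). Tlr13 also lost its call with the block over submitter-number runs (0.0675), after quantile normalization (0.0729) and with centred arrays (0.0537).

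Fads2 and Scd1, which lay far below full medium in both low media, were not called between them. Fads2, a fatty acid desaturase, averaged 4.92 in low arginine, 4.64 in low leucine and 9.54 in full medium (0.28 ± 0.21 between the low media). Scd1, the stearoyl-CoA desaturase, averaged 5.0 in low arginine, 4.97 in low leucine and 9.59 in full medium. In both low media these means lay below the median level over genes, so a difference between the low media may not show. None of 19 cholesterol synthesis genes was called (median -0.16, 17 below 0), while the block called 3 lower and none higher. Their list mean was 7.02, 6.99 and 7.08 in low arginine and 7.28, 7.21 and 7.25 in low leucine, without overlap. Fdps, which makes farnesyl diphosphate, was at 6.77, 7.14 and 7.34 in low arginine and at 7.92, 7.75 and 8.09 in low leucine (-0.84 ± 0.22, adjusted p = 0.0803, blocked 0.00219). The fatty acid elongase Elovl5 was the called member of 12 fatty acid synthesis genes (0.46 ± 0.10, adjusted p = 0.0331), and it lost its call in each of the 6 fits that left out an array (adjusted p up to 0.189), with centred arrays (0.104), without an intensity trend (0.0756) and with the block over submitter-number runs (0.084). Gzmb, which encodes granzyme B, gave -0.50 ± 0.46 (adjusted p = 0.872, blocked 0.0229).

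Without antigen, arginine and leucine shortage did not differ in any gene that passed the test. With 2 arrays of low arginine and 3 of low leucine, limma called 0 of 22180 genes (0.0%). An unadjusted limma p below 0.05 was found for 988 genes (4.45% of all) without antigen, against 2126 (9.59%) with antigen. The 158 genes called with antigen had no common direction there: 84 had the same sign, the median was -0.03 over the risers and -0.04 over the fallers, and most values lay near 0. Il21 was at 5.10 and 5.19 in low arginine and at 5.36, 5.07 and 4.60 in low leucine without antigen. Egln3 was at 5.50 and 5.49 in low arginine and at 5.91, 5.26 and 5.87 in low leucine.

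The difference between the effects with and without antigen was itself tested, and 3 genes (0.0135%) passed. The effect on Rgs16 was lower by 2.37 ± 0.26 with antigen (adjusted p = 0.000106), that on Sema4f lower by 1.45 ± 0.25 (adjusted p = 0.0441), and that on Il6st higher by 1.06 ± 0.15 (adjusted p = 0.00531). Antigen raised Rgs16 by 1.91 ± 0.19 in low arginine and by 4.28 ± 0.17 in low leucine. Rgs16 kept its call in each of the 11 fits that left out 1 array and in the 8 other settings. Il6st lost it without replicate 1 in low arginine without antigen (adjusted p = 0.13) and when arrays of other groups were left out (0.0601). Sema4f kept it in 2 of the 11 fits (adjusted p up to 0.26) and lost it without the arrays of other groups (0.127) and with the block over submitter-number runs (0.054). For Il21 the difference of -2.32 missed the call (adjusted p = 0.205), as did those of Il2 (-1.87, adjusted p = 0.167) and Egln3 (-2.44, adjusted p = 0.125). For these genes a fall that differs between antigen and no antigen is therefore not shown.

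**Figure D5:**
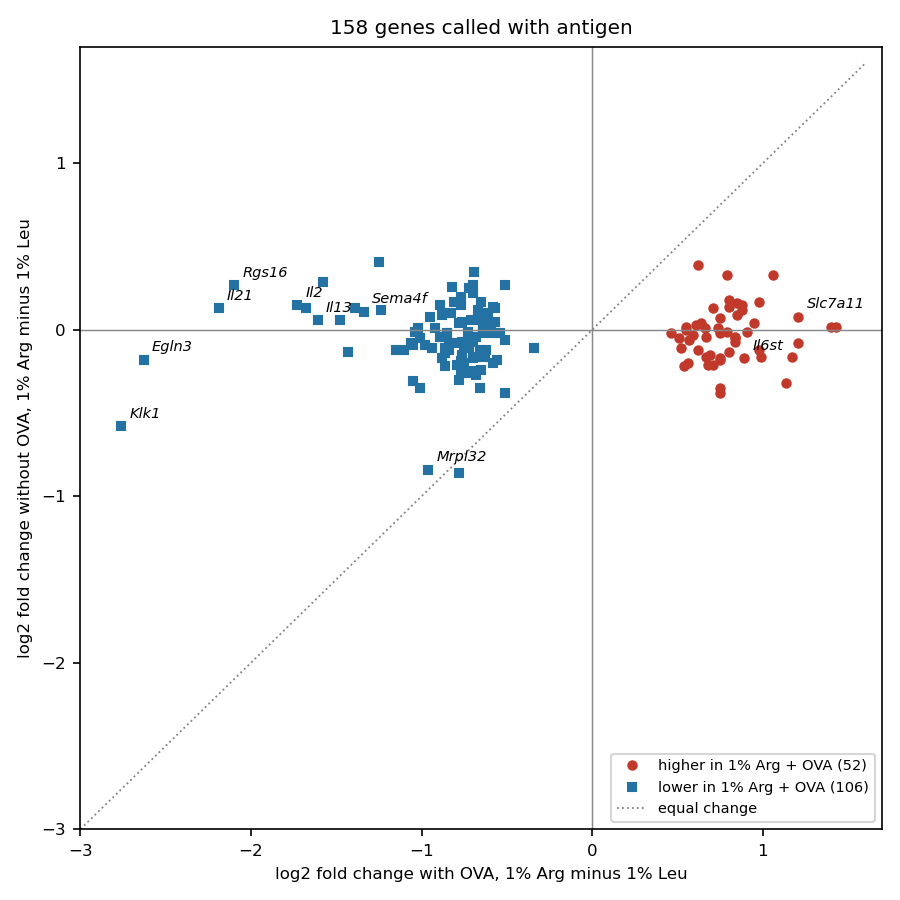
Log2 fold change of low arginine minus low leucine with OVA (x axis) and without OVA (y axis) for the 158 genes called with OVA, which fixes their distance from 0 on the x axis. Points on the dotted line would change equally: the risers (circles, 52) and fallers (squares, 106) lie mostly near 0 on the y axis, with Mrpl32 among the few near the line.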

How the data were processed

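The deposited log2 values are RMA expression values that the authors made with Affymetrix Expression Console 1.1, per the submitters' processing notes, from Mouse Gene 2.0 ST arrays. Values were used as deposited, and the number of arrays limits the precision. Of 41345 probe sets, 23521 name 1 gene, 1814 several and 16010 none in the platform annotation. The probe set with the highest mean stood for each of 22180 genes. A group-means model over the 23 arrays at 48 h was fitted with limma 3.58.1 (R 4.3.3, eBayes with an intensity trend), and p-values were adjusted by Benjamini-Hochberg over all genes. Calls are genes whose two-sided adjusted p was below 0.05. Tables and figures were made with Python 3.11.15, pandas 2.3.3 and matplotlib 3.10.9, and the fit was tested on simulated data.

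Same-numbered arrays of the 2 media deviated together from their group means (r = 0.3511, 0.294 and 0.3897 over 5000 genes, each above 0.1), so the numbers were taken to pair them. The source of the pairing is this check, since the labels do not state what a number marks. The alternatives were other normalizations, fits, filters and probe set rules, the block, and leaving out each array.

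Genes named are the 12 largest called rises and 12 largest falls with separate groups and a symbol of their own, up to 4 called or 2 leading members of each of 32 gene lists, genes of the antigen interaction, and a fixed set. Other genes were named after their values were seen. The members and lists were chosen with earlier results of these data known.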

Additional observations from a re-analysis of the deposited data

Results flagged for a closer look

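For 3 genes the difference between low arginine and low leucine itself differed between cells with and without antigen, by limma's test of that difference. Rgs16 showed a difference of -2.37 on the log2 scale (adjusted p = 0.000106), from a contrast of -2.10 with antigen and 0.27 without it. Il6st showed a difference of 1.06 (adjusted p = 0.00531), from 0.89 with antigen and -0.17 without it. Sema4f showed a difference of -1.45 (adjusted p = 0.0441), from -1.34 with antigen and 0.11 without it. The cause of these differences was not tested.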

How the results depend on the processing

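The count of 158 genes called with antigen (52 higher, 106 lower) depended on the fit, and the scaling changed which genes were called. It was 1404 (514 and 890) with the replicate block, 879 (317 and 562) with the 6 compared arrays alone, 757 (236 and 521) with array weights and 95 (27 and 68) with centred arrays. Quantile normalization gave 173 (83 and 90). Of the 158 genes, 122 stayed called after quantile normalization and 95 with centred arrays. A mean level of at least 6 gave 235 of 9460 genes (72 and 163), and the block over submitter-number runs gave 110 (41 and 69). Leaving out 1 array gave 48 to 78 calls, 20 to 33 of them higher and 28 to 50 lower, and each of the 6 arrays moved the count by more than 1.5 times. Of the 158 genes, 37 were called in all 6 of these fits and 44 in none. Without antigen the count of 0 became 8 without replicate 2 in low arginine and 1 without replicate 3 in low leucine (range 0 to 8), and it was 0 in the other settings. The 3 genes of the antigen difference became 29 with array weights, 5 with the compared groups alone, 6 at a mean level of at least 6 and 12 after quantile normalization, and 1 to 9 when 1 array was left out (1 without replicate 1 in low arginine and 9 without replicate 1 in low leucine, both without antigen, and 5 without replicate 2 in low leucine with antigen). Genes near 0, none of them called, changed sign. When 1 array was left out, Trib3 ranged over -0.03 to 0.19, Atf4 over -0.11 to 0.04, Ass1 over -0.2 to 0.08, Bcat1 over -0.13 to 0.06, Il2ra over -0.01 to 0.06, Cdk1 over -0.03 to 0.17 and Scd1 over -0.16 to 0.22. Quantile normalization gave Bcat1 0.06 and Scd1 0.00, and array weights gave Scd1 -0.07. The list medians of alternatively activated macrophage markers (0.01, against -0.02 after quantile normalization), CD4 T cell identity (-0.01, against 0.02) and autophagy genes (0.01, against -0.01 after centring) had no stable sign. The cause of these changes was not tested, beyond the smaller number of arrays or genes in a setting. Calls of single genes that another setting ended are given beside the gene. For leaving out an array, some are given only as the range of called members of the gene's list. The block of 6 arrays ended no call of the 158 genes, and the gains it brought to the genes and lists described are given beside them.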

Other observations

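Lists of 5 further kinds held no call in the fit over all 48 h arrays and several with the replicate block, against 6.33% of all genes. Of 26 T cell activation genes (median -0.11) the block called 4 higher and 7 lower. The higher ones include Il2rb, a chain of the IL-2 receptor (0.67, adjusted p = 0.135, blocked 0.000407), and Icos, a costimulatory receptor (0.54, adjusted p = 0.124, blocked 0.00613), and the lower ones Egr2, a factor induced by receptor signalling (-0.54, adjusted p = 0.264, blocked 0.00238). Of 17 p53 targets (median -0.29) it called 1 higher and 4 lower, among the lower the cell cycle inhibitor Cdkn1a (-0.50, adjusted p = 0.648, blocked 0.0169). Of 21 oxidative phosphorylation genes (median -0.14) it called 3 lower and none higher. Of 20 helper lineage regulators (median 0.14) it called 2 higher and 1 lower, the lower one being Tbx21, the T-bet factor of Th1 cells (-0.48, adjusted p = 0.653, blocked 0.0377). Of 12 serine, glycine and one-carbon genes (median 0.05) it called 2 higher, Shmt2 and Tyms. Bnip3 was the called member of 25 autophagy and lysosome genes (median 0.01), of which the block called 2 higher and 1 lower. Among markers of other cells none was called in the lists of alternatively activated macrophages (17, median 0.01), B cells (12, median 0.09), granulocytes and mast cells (18, median 0.07), CD8 T and NK cells (13, median -0.14), dendritic cells (12, median 0.13) and mesothelial or stromal cells (19, median 0.04). The block called 1 higher in each of the alternatively activated macrophage, B cell and mesothelial lists, 2 lower in the CD8 T and NK cell list, 1 higher and 1 lower in the dendritic cell list, and none in the granulocyte and mast cell list.

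Reading the called genes brought out 2 further groups, which were chosen for having fallen, so their counts support nothing. Of the 106 fallers, 17 act in ribosome assembly (median -0.72) and 13 in mitochondria (median -0.78). Ngdn fell by 0.92, Ftsj3 by 0.85, Pno1 by 0.84 and Noc3l by 0.83. Nme4 fell by 1.04, Ndufaf6 by 1.01 and Mrpl32 by 0.96, and Mrpl32 had a log2 fold change of -0.84 without antigen. Pno1, Ndufaf6 and Mrpl32 lost their calls with centred arrays (adjusted p = 0.0875, 0.0707 and 0.052), and these and Noc3l after quantile normalization (0.0971, 0.0857, 0.0805 and 0.1). Pno1 also lost it without an intensity trend (0.0547) and Ndufaf6 with the block over submitter-number runs (0.0581). When 1 array was left out, 3 to 8 of the ribosome assembly group and 0 to 4 of the mitochondrial group stayed called. Nme4, Ndufaf6 and Mrpl32 therefore did not keep their calls in every such fit.

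Il2 and Il21 lie next to each other on chromosome 3, and Il4 and Il13 on chromosome 11, in RefSeq's gene order. The genes near these pairs that are given here were not called by limma over all 48 h arrays. Adad1, next to Il2, gave -0.23 (adjusted p = 0.779) and Bbs12, near Il21, 0.05 (adjusted p = 0.983). Kif3a, next to Il4, gave -0.54 (adjusted p = 0.237, and 0.0232 with the replicate block), Rad50, next to Il13, -0.12 (adjusted p = 0.945), and the cytokine gene Il5 beyond it -0.21 (adjusted p = 0.861).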
